A study of Mus musculus with 6 samples.

Results

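At 1% O2, the gene for the ER oxidase ERO1α (Ero1l) rose 8.09-fold in pancreatic stellate cells (PSCs), and the gene for its substrate protein disulfide isomerase (P4hb) rose 1.91-fold. The stress sensor gene Ern1 rose 2.44-fold and the co-chaperone gene Dnajb9 rose 1.60-fold. None of the other 35 genes for ER chaperones, disulfide chemistry, ER stress sensing, ER-associated degradation (ERAD), protein export and collagen folding passed the same threshold, and 4 of 39 is 10.3%, beside 34.2% of all 16207 tested genes. The 95% confidence interval lay wholly within 1.5-fold in either direction for 28 of the 39 (71.8%) and for 40.9% of all tested genes. The median level was 117 CPM (counts scaled to library size) in the set and 17.8 CPM over all tested genes. The part of level in the shares called and in the interval counts was not tested. The 39 genes were chosen by symbol as the ER folding and quality control set, matched to the Ensembl identifiers of the deposited table through GENCODE M21, and are 39 of 55421 genes in it. All 39 also passed the filter on low counts.

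RNA from primary mouse PSCs was sequenced in 6 samples. PSCs are the resident fibroblast precursors of the pancreas, and here they came from wild-type C57BL/6 mice, were used as early-passage primary lines, and were embedded in Matrigel in a transwell insert above organoids of mT3. mT3 is a mouse pancreatic ductal adenocarcinoma line from the KPC model, and it was present in every culture of both groups. The normoxic group holds 3 samples kept at 21% O2 and the hypoxic group 3 samples kept at 1% O2, each for 48 h, and the comparison asks which of the 39 genes differ with oxygen. The labels number the replicates 1 to 3 in each group without saying whether they came from separate cultures or animals, so the p-values measure the spread between these samples.

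The endoplasmic reticulum folds secreted and membrane proteins, and fibroblasts that secrete collagen load it heavily. Chaperones of the Hsp70 and Hsp90 classes hold nascent chains, protein disulfide isomerases make and rearrange disulfide bonds, and ERO1 oxidases recharge the isomerases by passing electrons to molecular oxygen. When misfolded protein accumulates, the sensors IRE1α, PERK and ATF6 start the unfolded protein response, which raises chaperone and ERAD genes, and ERAD exports misfolded chains to the cytosol for destruction by the proteasome.

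Library totals ran from 24749601 to 31925054 counts, and 3 counts, taken as the smallest amount told from none, correspond to 0.0943 to 0.122 CPM, which are counts scaled to a common library size with TMM factors. Such limits cover counting error only, since no source used here mentions molecular identifiers and PCR copies then count as reads. A gene was called when edgeR's quasi-likelihood test gave a Benjamini-Hochberg adjusted p under 0.05 over all tested genes and a fold change beyond 1.5. All 8 control genes for hypoxia were called higher (log2 fold change 1.5 to 5.13). The fibroblast markers summed to 28424 to 35619 CPM in normoxic and 30459 to 35302 CPM in hypoxic samples, a sum in which collagens weigh heavily, and of the 10 markers 2 were called higher (Pdpn and Pdgfra) and 2 lower (Lum and Thy1). Of 11 macrophage markers, 8 were called lower and 3 were not called, and their sum was 950 to 1702 CPM in normoxic and 468 to 843 CPM in hypoxic samples. Of 11 epithelial or tumor cell markers, 8 were under 1 CPM in every sample, Epcam had 0 counts in 5 samples and 1 in the other, and Krt19 was called higher, at 20.6 to 23.9 CPM in hypoxic samples. Of the 7 plasma cell markers 6, and of the 10 acinar markers 9, were under 1 CPM in every sample. The exceptions, neither of them called, were Sdc1 and Cela1. Sdc1 was at 315 to 547 CPM (log2 fold change 0.39, edgeR adjusted p = 0.0195). Cela1 was at 8.23 to 12.4 CPM (log2 fold change -0.33, edgeR adjusted p = 0.0275). Of the 5 endothelial markers, Tek was called higher and Kdr lower, and their sum was at most 19.8 CPM in any sample. In bulk RNA, fewer cells of a type and less RNA per cell cannot be told apart, and the part of these marker differences in the results for the 39 genes was not tested.

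The genes whose promoters carry the binding element of the unfolded protein response are shown first, because ATF6 and XBP1 act on chaperone genes through it. Promoters from RefSeq (GRCm38.p6, 250 bases before to 50 after the annotated start) were matched for 33 of the 39 genes. The ER stress element was searched as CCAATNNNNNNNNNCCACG on both strands. It was found in 39 of 32851 promoters (0.119%) and in the promoters of 20 of the 11127 tested genes with an entry (0.18%) and of 8 of the 33 matched genes (24.2%). The capitals mark the fixed letters of the element, and a lower case N-stretch of 9 bases lies between them. Where the element is on the reverse strand, the capitals read CGTGG and ATTGG. Each is printed along the strand of its gene.
Hspa5, chr2:34772020-34772048, plus strand: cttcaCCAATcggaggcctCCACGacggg
Hsp90b1, distal copy, chr10:86705633-86705661, minus strand: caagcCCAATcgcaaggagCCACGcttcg
Hsp90b1, proximal copy, chr10:86705528-86705556, minus strand: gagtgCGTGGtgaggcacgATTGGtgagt
Dnajc3, chr14:118937822-118937850, plus strand: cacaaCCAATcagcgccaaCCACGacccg
Creld2, chr15:88819515-88819543, plus strand: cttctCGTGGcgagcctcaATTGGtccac
Pdia6, chr12:17266486-17266514, plus strand: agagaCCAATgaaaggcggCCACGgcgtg
Ero1lb, chr13:12565677-12565705, plus strand: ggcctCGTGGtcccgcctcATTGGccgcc
Syvn1, chr19:6046527-6046555, plus strand: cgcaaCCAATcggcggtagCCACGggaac
Derl3, chr10:75893237-75893265, plus strand: tctacCGTGGgacttccccATTGGctagc

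None of the 4 called genes is in that list. The log2 fold changes of the 8 genes with the element ran from -0.41 to 0.53 with a median of 0.17, and the 25 matched genes without it had a median of -0.03. The core of the hypoxia response element takes the forms ACGTG and GCGTG, and these short words are common. ACGTG, on either strand, was in 19.6% of all promoters, in the promoters of 28.8% of tested genes with an entry, and in those of 18 of the 33 matched genes (54.5%). GCGTG was in 32.4% of all promoters, 54.6% of tested genes and 21 of the 33 matched genes (63.6%). The matches upstream of the start in the 4 called genes are printed below with the core in capitals, except for the more distant GCGTG of P4hb. A core on the reverse strand reads CACGT or CACGC, and in Dnajb9 the printed core and the G after it make a palindrome that matches on both strands.
Ero1l, chr14:45318686-45318710, minus strand: ggaggcgggtGCGTGagcggggcgc
Ero1l, chr14:45318646-45318670, minus strand: cccgaggctcGCGTGgacagaggcg
Ero1l, chr14:45318621-45318645, minus strand: cgcgccgctgCACGTccgcagggga
P4hb, chr11:120573295-120573319, minus strand: cgcccactgcCACGTtcgacggaga
Ern1, chr11:106487945-106487969, minus strand: ccactcttacCACGCccacaaaaca
Dnajb9, chr12:44210161-44210185, minus strand: aacagttttcCACGTgcgcgtaggg
A match is a description of letters in this window. The printed stretches of Hspa5, Ero1l and Dnajb9 lie inside the annotated span of their GENCODE genes, and the other printed stretches lie outside it. The RefSeq and GENCODE starts of a gene can differ.

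**Figure D1:**
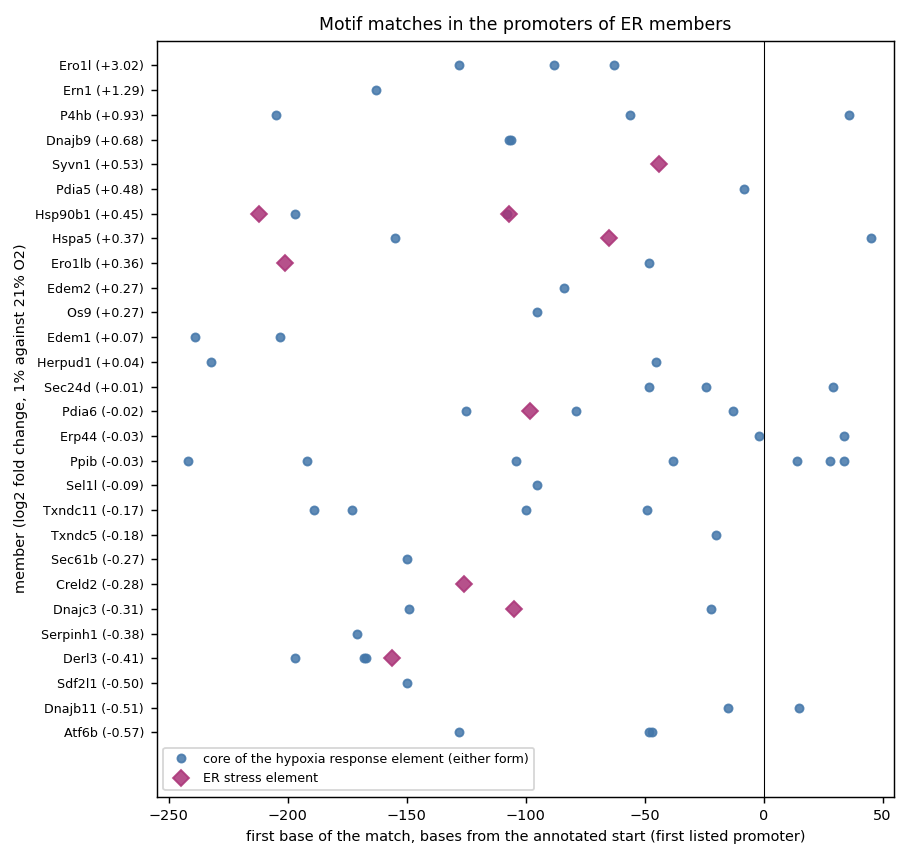
Positions of motif matches in the first listed RefSeq promoter of the members that hold any, in bases from the annotated start (x axis), with members ordered by log2 fold change (y axis, value in brackets). Diamonds mark the ER stress element, found in 8 matched members with log2 fold changes from -0.41 to 0.53, and circles mark the core of the hypoxia response element in either form, which spreads over the whole order, from Ero1l (3.02) to Atf6b (-0.57).

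Of the 39 genes, 4 were called higher and 0 lower (10.3%), whereas 34.2% of the 16207 tested genes were called (18.9% higher and 15.3% lower). By the adjusted p alone, 11 of the 39 were higher and 14 lower (64.1%), beside 62.7% of all tested genes (31.8% higher and 31.0% lower). The samples of the groups did not overlap for 25 of the 39, 11 with hypoxia above and 14 below, and did not overlap for 68.9% of tested genes. By an unadjusted p under 0.05, the counts in edgeR were likewise 11 higher and 14 lower, and DESeq2 and limma-voom each called 4 higher and 0 lower, so that the groups below with 0 calls had 0 in both. The share with an oxygen difference by adjusted p was near the background, and the share past 1.5-fold was below it. The median log2 fold change of the 39 was -0.03, beside 0.00 over all tested genes. The median absolute log2 fold change was 0.27, beside 0.42. Expression levels differed too (median 117 CPM in the set, 17.8 CPM over all tested genes), and their part in these shares and medians was not tested. With 1 normoxic library left out (replicate 3), Atf6b also passed as lower at a log2 fold change of -0.60, and the 4 genes called higher were called in each of the 6 fits that left out 1 library. Exons of 12 members overlap a gene on the opposite strand, and since the strand setting of the counting is not stated, reads of such partners cannot be told apart. Among them are Hsp90b1, Manf (Dcaf1), Derl2 (Mis12), Fkbp10 (Nt5c3b) and Ppib (Snx22). Ero1l, P4hb and Ern1 are not among them, and the partner of Dnajb9 is a microRNA gene with 0 counts.

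**Figure D2:**
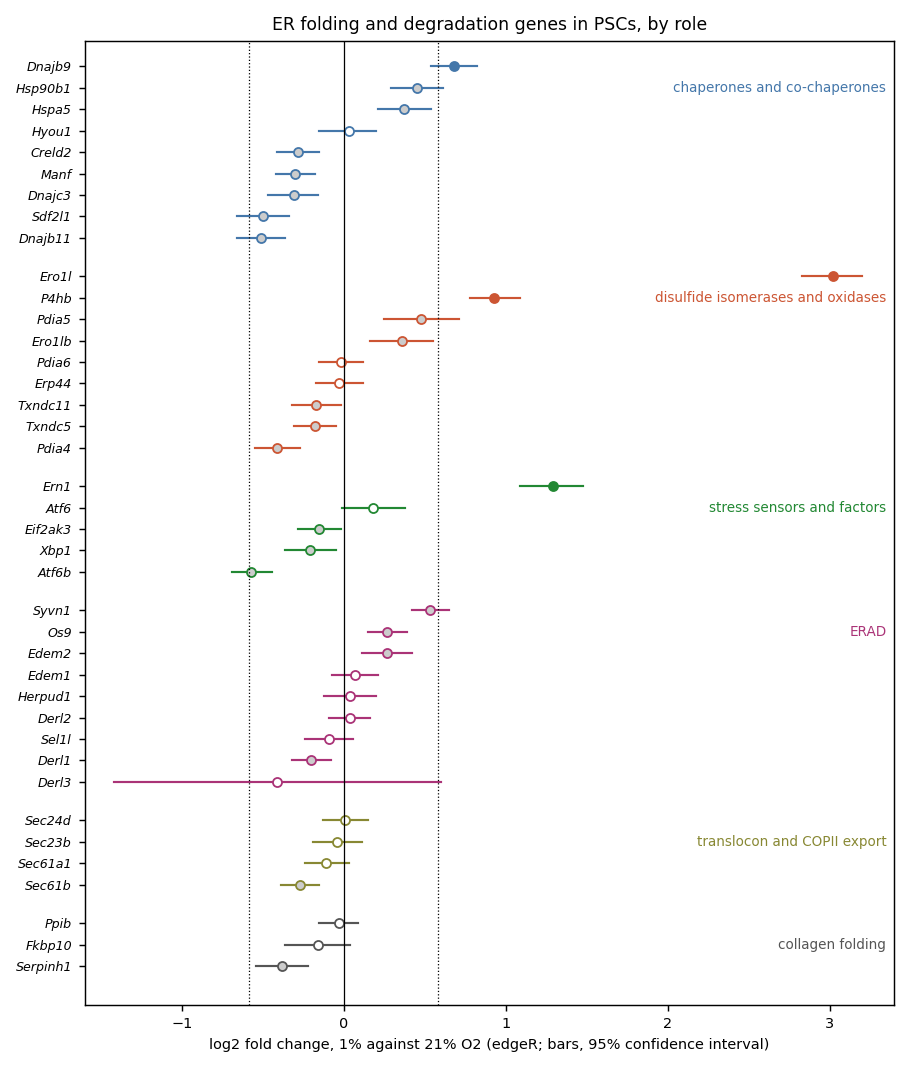
Log2 fold change at 1% against 21% O2 for the 39 members, grouped by role, with bars for the 95% confidence interval from edgeR and dotted lines at 1.5-fold. Filled points were called, grey points passed the adjusted p only and open points passed neither; Ero1l (3.02), Ern1 (1.29), P4hb (0.93) and Dnajb9 (0.68) are filled and Atf6b (-0.57) lies just inside the lower line.

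The disulfide isomerases and oxidases held the largest fold change of the set. Of 9 genes, 2 were called higher and 0 lower (22.2%, beside 34.2% of all tested genes). By adjusted p alone 4 were higher and 3 lower (77.8%, beside 62.7%). Ero1l (ENSMUSG00000021831, chromosome 14, 45283087 to 45318771, minus strand) encodes the broadly expressed oxidase that uses oxygen to reoxidize protein disulfide isomerase. It stood at 176, 167 and 193 CPM in the normoxic samples and at 1395, 1543 and 1392 CPM in the hypoxic samples. Every hypoxic sample was far above every normoxic sample, and replicates of a group lay close together. The log2 fold change was 3.02 (SE 0.08, edgeR adjusted p = 2.91e-08), with a 95% interval of 7.13- to 9.18-fold, and 98.0% of tested genes had a smaller absolute change.

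P4hb (ENSMUSG00000025130, chromosome 11, 120560298 to 120573253, minus strand) encodes protein disulfide isomerase, which is also the β subunit of the collagen prolyl 4-hydroxylases. Its level was 1431, 1290 and 1406 CPM in normoxic and 2670, 2669 and 2531 CPM in hypoxic samples, with no overlap. The log2 fold change was 0.93 (SE 0.07, edgeR adjusted p = 5.07e-06). P4ha1, the catalytic partner of P4hb in the hydroxylase, is not in the set, and its log2 fold change was 0.94 (SE 0.06, edgeR adjusted p = 3.03e-06). Within a sample, P4hb had 2.75, 2.64 and 2.62 counts per P4ha1 count in normoxia and 2.57, 2.80 and 2.58 in hypoxia. The groups overlapped in that ratio, and the log2 change was -0.01 (pairs of samples from -0.10 to 0.09, exact permutation p = 0.7).

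Ero1lb (ENSMUSG00000057069), the oxidase best known from insulin-secreting cells, was scarce. It stood at 9.74, 9.11 and 9.70 CPM in normoxia and 12, 12.7 and 11.8 CPM in hypoxia, without overlap, and its log2 fold change of 0.36 (SE 0.09, edgeR adjusted p = 0.00593) was below the fold threshold. The count ratio of Ero1l to Ero1lb was 18.0, 18.3 and 19.9 in normoxia and 116, 121 and 117 in hypoxia. All 3 hypoxic ratios were above all normoxic ratios, by 2.66 on the log2 scale (pairs from 2.55 to 2.75). The exact two-sided permutation test gave p = 0.1, which is the smallest value that 3 against 3 samples allow.

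The remaining isomerases differed in direction. Pdia5 was higher at 61.3, 46.2 and 59.9 CPM in normoxia and 83.3, 73.3 and 77.1 CPM in hypoxia (log2 fold change 0.48, SE 0.10, edgeR adjusted p = 0.00295). Pdia4, an isomerase with an extra thioredoxin domain, was lower, at 318, 283 and 290 CPM in normoxia and 231, 215 and 226 CPM in hypoxia (log2 fold change -0.41, SE 0.06, edgeR adjusted p = 0.000425). Neither gene's groups overlapped, and both differences were below 1.5-fold. Pdia6 (log2 fold change -0.02) and Erp44 (-0.03), which retains ERO1 and other proteins in the early secretory pathway, did not pass, with 95% intervals of 0.902- to 1.08-fold and 0.888- to 1.09-fold. The count ratio of Pdia4 to Pdia6 ran from 0.667 to 0.685 in normoxia and from 0.488 to 0.535 in hypoxia, with no overlap (exact permutation p = 0.1). Txndc5 (-0.18, edgeR adjusted p = 0.0214) and Txndc11 (-0.17, adjusted p = 0.0469) were lower by the adjusted p alone. Txndc5 lost that p without normoxia replicate 1 (0.0631), normoxia replicate 3 (0.0614), hypoxia replicate 2 (0.0537) or hypoxia replicate 3 (0.0656) in edgeR. Txndc11 lost it without normoxia replicate 2 (0.109) or any of hypoxia replicates 1 (0.128), 2 (0.12) and 3 (0.0641) in edgeR. Txndc11 passed in only 4 of 11 fits with another setting or tool, and its adjusted p was 0.0839 in DESeq2 and 0.0505 in limma-voom. Exons of Txndc5 overlap those of Bmp6, and exons of Txndc11 those of Snn, on the opposite strand.

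**Figure D3:**
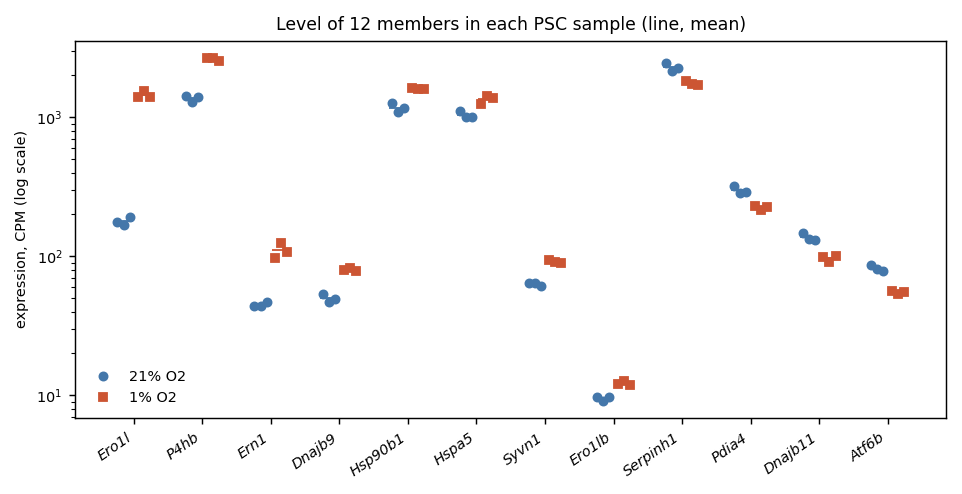
Expression of 12 members in each sample, in CPM on a log axis, with circles for the 3 samples at 21% O2, squares for the 3 at 1% O2 and short lines for the group means. Ero1l moved from 167 to 193 CPM up to 1392 to 1543 CPM, and Serpinh1 moved from 2143 to 2437 CPM down to 1690 to 1816 CPM.

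Among the 9 chaperones and co-chaperones, 1 was called higher and 0 lower (11.1%, beside 34.2% of all tested genes). By the adjusted p alone 3 were higher and 5 lower (88.9%, beside 62.7%). Their median log2 fold change was -0.28. Dnajb9 (ENSMUSG00000014905, chromosome 12, 44205559 to 44210326, minus strand), which encodes the J-domain protein ERdj4 and is a target of the IRE1α and XBP1 branch, stood at 53.8, 46.9 and 49.5 CPM in normoxia. It stood at 79.6, 82.3 and 78.3 CPM in hypoxia, all above the normoxic samples. Its log2 fold change was 0.68 (SE 0.06, edgeR adjusted p = 1.83e-05).

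Hspa5 and Hsp90b1, the genes for BiP and GRP94, are the abundant chaperones of the lumen. Hspa5 had 1107, 1001 and 1005 CPM in normoxia and 1253, 1419 and 1363 CPM in hypoxia (log2 fold change 0.37, SE 0.07, edgeR adjusted p = 0.00169). Hsp90b1 had 1261, 1087 and 1161 CPM in normoxia and 1610, 1588 and 1597 CPM in hypoxia (log2 fold change 0.45, SE 0.07, edgeR adjusted p = 0.00045). Both were higher in every hypoxic sample but by less than 1.5-fold, and the upper ends of their intervals were 1.45- and 1.52-fold. Their ratio overlapped between the groups (log2 change -0.08, exact permutation p = 0.4).

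The other co-chaperones lay lower or showed no difference past the test. Dnajb11, the gene for the BiP co-chaperone ERdj3, had 148, 132 and 131 CPM in normoxia and 99.2, 90.2 and 99.7 CPM in hypoxia (log2 fold change -0.51, SE 0.07, edgeR adjusted p = 0.000175). Sdf2l1, which encodes a partner of ERdj3, had 32.5, 31.9 and 31.5 CPM in normoxia and 22.0, 24.6 and 21.2 CPM in hypoxia (log2 fold change -0.50, SE 0.07, edgeR adjusted p = 0.00027). For both genes all hypoxic samples were below all normoxic samples. Dnajc3, the gene for the J-domain protein p58IPK, had a log2 fold change of -0.31 (edgeR adjusted p = 0.00299), Manf, which encodes a secreted factor that binds BiP, of -0.30 (0.000925), and Creld2 of -0.28 (0.0027). Hyou1, the gene for the nucleotide exchange chaperone GRP170, did not pass at 0.03 (95% interval 0.903- to 1.15-fold). The count ratio of Dnajb9 to Dnajb11 was 0.363, 0.355 and 0.377 in normoxia and 0.803, 0.913 and 0.786 in hypoxia. The ratio was higher in every hypoxic sample, by 1.19 on the log2 scale (pairs from 1.06 to 1.36, exact permutation p = 0.1).

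The 5 stress sensors and factors split as well, with 1 called higher and 0 lower (20.0%, beside 34.2% of all tested genes). By adjusted p alone 1 was higher and 3 were lower (80.0%, beside 62.7%). Ern1 (ENSMUSG00000020715, chromosome 11, 106394650 to 106487852, minus strand) encodes IRE1α, the kinase and endonuclease that splices Xbp1 mRNA. It had 43.9, 43.9 and 46.9 CPM in normoxia and 97.5, 124 and 108 CPM in hypoxia, without overlap. Its log2 fold change was 1.29 (SE 0.09, edgeR adjusted p = 2.71e-06). Xbp1, its substrate, was at 225, 263 and 245 CPM in normoxia and 209, 221 and 205 CPM in hypoxia (log2 fold change -0.21, SE 0.07, edgeR adjusted p = 0.0253). Gene counts do not separate spliced from unspliced Xbp1. Eif2ak3, the gene for PERK, had a log2 fold change of -0.15 (SE 0.06, edgeR adjusted p = 0.0463). The Xbp1 p was lost without normoxia replicate 2 (0.0528), normoxia replicate 3 (0.0598), hypoxia replicate 1 (0.0761) or hypoxia replicate 3 (0.0961) in edgeR. The Eif2ak3 p was lost without normoxia replicate 1 (0.107), normoxia replicate 3 (0.102), hypoxia replicate 1 (0.15) or hypoxia replicate 2 (0.12) in edgeR. It passed in only 5 of 11 fits with another setting or tool, with an adjusted p of 0.101 in DESeq2.

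Atf6 and Atf6b encode related membrane-bound transcription factors that are released by proteolysis in the Golgi. Atf6 had 71.5, 55.7 and 65.5 CPM in normoxia and 70.2, 77.3 and 71.5 CPM in hypoxia, and the groups overlapped (log2 fold change 0.18, SE 0.09, edgeR adjusted p = 0.0952). With 1 library left out, the log2 fold change of Atf6 ran from 0.09 to 0.26. The edgeR adjusted p was 0.024 without normoxia replicate 1 (0.26) and at most 0.268 in these fits. Atf6b (ENSMUSG00000015461, chromosome 17, 34647146 to 34655074, plus strand) had 86.0, 80.7 and 78.2 CPM in normoxia and 56.5, 53.7 and 55.1 CPM in hypoxia. No hypoxic sample reached a normoxic one. The log2 fold change of Atf6b was -0.57 (SE 0.06, edgeR adjusted p = 2.74e-05), or 0.675-fold, just short of the fold threshold, which it passed without normoxia replicate 3 (-0.60). The count ratio of Atf6 to Atf6b was 0.831, 0.690 and 0.838 in normoxia and 1.24, 1.44 and 1.3 in hypoxia, a log2 change of 0.76 with no overlap (exact permutation p = 0.1).

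Of the 9 ERAD genes, 0 were called in either direction by edgeR, beside 34.2% of all tested genes. By adjusted p alone 3 were higher and 1 lower (44.4%, beside 62.7%). Syvn1, the gene for the ubiquitin ligase HRD1 at the center of ERAD, had 64.4, 63.9 and 61.2 CPM in normoxia and 93.7, 91.4 and 89.2 CPM in hypoxia (log2 fold change 0.53, SE 0.05, edgeR adjusted p = 2.26e-05). Its groups stood well apart, and the fold change of 1.45 was below the threshold. Part of its exon sequence is shared with Mrpl49 on the opposite strand. Os9, a lectin that hands glycoproteins to HRD1, had a log2 fold change of 0.27 (edgeR adjusted p = 0.00164), and Edem2, a mannosidase-like factor that trims the glycans of misfolded proteins, also of 0.27 (0.00914). Sel1l, the partner of HRD1, did not pass at -0.09 (edgeR adjusted p = 0.256, or 0.0244 with a log2 fold change of -0.16 without normoxia replicate 2). Over the fits that left out 1 library, Sel1l ran from -0.16 to -0.05, with an edgeR adjusted p of at most 0.573. Edem1 (0.07), Herpud1 (0.04), a membrane protein that is a sensitive marker of the unfolded protein response, and Derl2 (0.04) did not pass either.

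The derlins are membrane proteins of ERAD. Derl1 was at 170, 171 and 164 CPM in normoxia and 144, 152 and 143 CPM in hypoxia (log2 fold change -0.20, SE 0.05, edgeR adjusted p = 0.00785). The ratio of Derl1 to Derl2 lay between 3.58 and 3.67 in normoxia and between 3 and 3.1 in hypoxia, without overlap. Derl3, the derlin of secretory gland cells, was near the limit of detection, with 16, 12 and 14 counts in normoxia and 15, 16 and 5 in hypoxia, and no difference was detectable at this depth (log2 fold change -0.41, SE 0.45, edgeR adjusted p = 0.447). The count of Derl3 was highest at 16 in a sample of each group. Derl1 has a pseudogene copy, Gm35638, with 52 to 84 counts, which could share reads with it.

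The 4 translocon and COPII genes held 0 called genes in edgeR, beside 34.2% of all tested genes. By the adjusted p alone 1 was lower (25.0%, beside 62.7%). Sec61b, a subunit of the translocation channel, had 60.4, 56.9 and 61.2 CPM in normoxia and 49.6, 48.9 and 49.5 CPM in hypoxia (log2 fold change -0.27, SE 0.05, edgeR adjusted p = 0.00171). It has a near copy, Gm10320, with 132 to 226 counts. Sec61a1, the channel pore, was at -0.11 (edgeR adjusted p = 0.142, or 0.0272 at -0.16 without normoxia replicate 2). Over the fits that left out 1 library, Sec61a1 ran from -0.16 to -0.07, with an edgeR adjusted p of at most 0.365. The COPII coat genes Sec23b (-0.04) and Sec24d (0.01), the latter an adaptor with a role in collagen export, had intervals of 0.876- to 1.08-fold and 0.916- to 1.11-fold. The ratio of Sec24d to its paralog Sec24c, which is not in the set, was lower in every hypoxic sample (1.43, 1.23 and 1.38 in normoxia, 1.09, 1.1 and 1.05 in hypoxia), and Sec24c had a log2 fold change of 0.33.

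Of the 3 genes for collagen folding, 0 were called in edgeR, beside 34.2% of all tested genes. By the adjusted p alone 1 was lower (33.3%, beside 62.7%). Serpinh1 (ENSMUSG00000070436, chromosome 7, 99345376 to 99353239, minus strand) encodes HSP47, the collagen-specific chaperone, and had 2437, 2143 and 2256 CPM in normoxia and 1816, 1742 and 1690 CPM in hypoxia. Each hypoxic sample was below each normoxic one. Its log2 fold change was -0.38 (SE 0.07, edgeR adjusted p = 0.0014). Per Col1a1 count, a collagen gene outside the set whose own log2 fold change was 0.03, there were 0.286, 0.315 and 0.234 Serpinh1 counts in normoxia and 0.192, 0.237 and 0.195 in hypoxia, and the groups overlapped (exact permutation p = 0.2). Fkbp10, a prolyl isomerase for procollagen, was at -0.16 (edgeR adjusted p = 0.144, or 0.0282 at -0.25 without hypoxia replicate 1). Over the fits that left out 1 library, Fkbp10 ran from -0.25 to -0.09, with an edgeR adjusted p of at most 0.392. Ppib, the prolyl isomerase cyclophilin B, was at -0.03 with an interval of 0.904- to 1.06-fold.

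**Figure D4:**
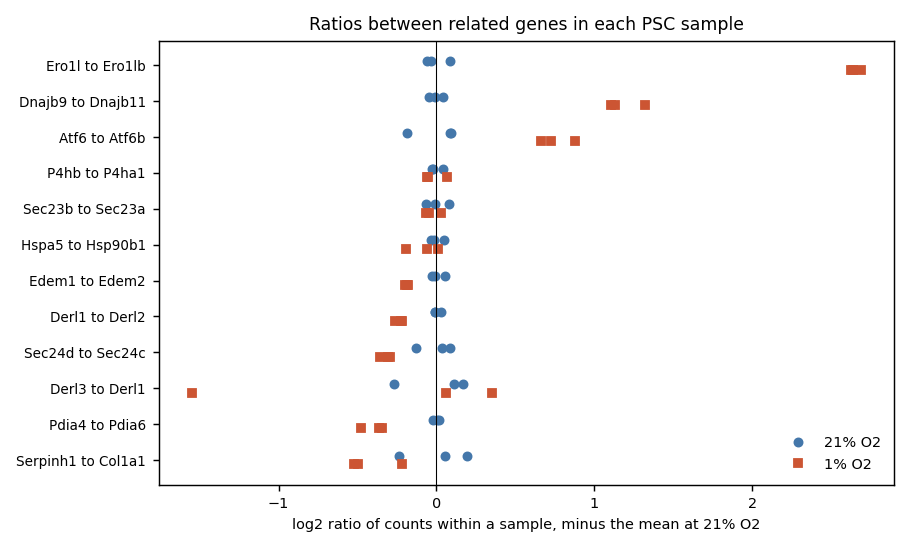
Log2 ratio of counts within each sample for 12 pairs of related genes (y axis), minus the mean of the 3 samples at 21% O2 (x axis), with circles for 21% and squares for 1% O2. Ero1l to Ero1lb moved by 2.66, Dnajb9 to Dnajb11 by 1.19 and Atf6 to Atf6b by 0.76, and P4hb to P4ha1 stayed at -0.01 with overlapping groups.

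Of the 12 ratios, 7 did not overlap between the groups, 3 with hypoxia above and 4 below, and each of these 7 had an exact permutation p of 0.1 (0.171 after adjustment over the 12). That is 58.3% of the ratios, beside 68.9% of single tested genes whose groups did not overlap, so nothing is read from the count. The ratios need no scaling between libraries.

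Summed over the set, reads of the 39 genes made up a larger share of hypoxic libraries. The 39 genes summed to 10795 ± 560 CPM in normoxia and 13316 ± 234 CPM in hypoxia (SD, n = 3 each), a ratio of 1.23. The isomerase and oxidase genes went from 27.0% to 40.0% of that sum, at 2753.8 to 3045.1 CPM in normoxia and 5168.3 to 5453.8 CPM in hypoxia. Without Ero1l and P4hb, the other 37 genes summed to 9241.6 ± 489 CPM in normoxia and 9249.0 ± 94.0 CPM in hypoxia, a difference of 7.42 CPM that was smaller than the spread between replicates. P4hb and Ero1l were set apart after their values were seen, and the small remainder is a balance of opposite differences. The 9 chaperones summed to 640.6 CPM more in hypoxia (ratio 1.21), and the sum of the 3 collagen folding genes was lower, with a difference of -561.3 CPM (ratio 0.802).

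**Figure D5:**
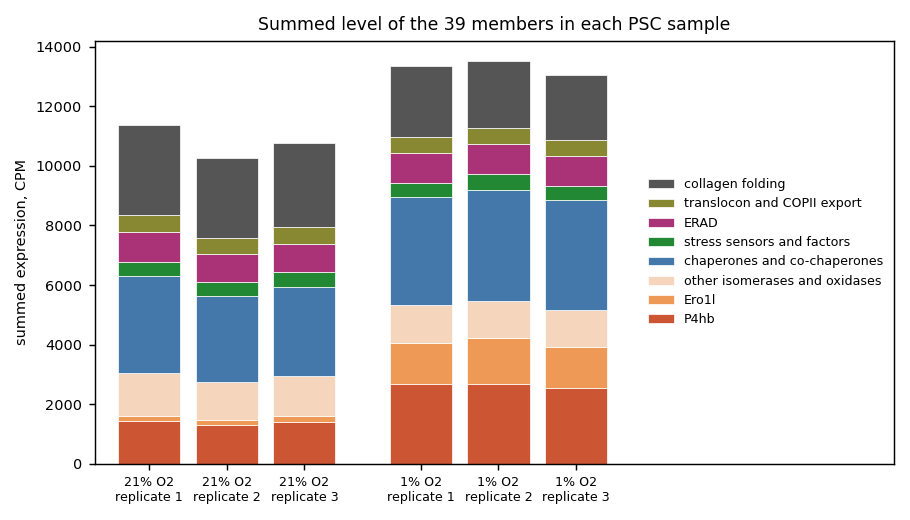
Summed expression in CPM of the 39 members in each sample, stacked by role, with P4hb and Ero1l shown apart from the other isomerases and oxidases. The normoxic bars reach 10250 to 11370 CPM and the hypoxic bars 13064 to 13526 CPM. The P4hb, Ero1l and chaperone segments are taller in hypoxia and the collagen folding segment is shorter.

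Per unit length, in TPM (transcript levels scaled by exon length and to a common total), the order of levels also changed at the top. In normoxia, Serpinh1 (3112 ± 244) led P4hb (1603 ± 102), Hsp90b1 (968 ± 84.7) and Hspa5 (819 ± 59.4), all SD with n = 3. In hypoxia, P4hb (3218 ± 75.3) led Serpinh1 (2513 ± 73.9), Hsp90b1 (1392 ± 11.6), Hspa5 (1117 ± 73.4) and Ero1l (959 ± 55.8). Ero1l had stood at 113 ± 8.08 in normoxia, and Derl3 was at the bottom in both conditions, at 0.915 and 0.736.

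The wider ER pathway, 127 other genes for folding, redox chemistry, stress response, ERAD, translocation and export, was compared in the same way. Of 124 tested, 3 were called higher and 4 lower (5.65%, beside 34.2% of all tested genes). By the adjusted p alone 36 were higher and 39 lower (60.5%, beside 62.7%), and the groups did not overlap for 90 (72.6%, beside 68.9%), so the last 2 shares were near the background. Their median absolute log2 fold change was 0.20, beside 0.42, and the part of expression level in these values was not tested. Ppp1r15a, the gene for the phosphatase subunit GADD34 that reverses PERK signaling, had 43.9, 39.9 and 47.6 CPM in normoxia and 72.7, 86.3 and 77.3 CPM in hypoxia (log2 fold change 0.85, edgeR adjusted p = 2.85e-05). Tram2, a translocation gene linked to collagen synthesis, and Prkcsh, the β subunit of glucosidase II, both stood at 0.59. Fkbp7 (-0.81), Ppic (-0.75), Selenof (-0.61) and Cnpy3 (-0.60) were called lower.

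These calls lay near the fold threshold for several genes. Prkcsh was under it without normoxia replicate 2 (0.52), normoxia replicate 3 (0.57) or hypoxia replicate 3 (0.57), and Tram2 without normoxia replicate 2 (0.50), hypoxia replicate 1 (0.57) or hypoxia replicate 3 (0.58). Selenof was under it without normoxia replicate 1 (-0.57) and Cnpy3 without hypoxia replicate 3 (-0.57). The lectin chaperone gene Calr was at -0.23 (edgeR adjusted p = 0.0225), Canx at -0.11 (0.134) and Pdia3, the isomerase that works with both, at -0.16 (0.0627, or 0.0415 in DESeq2). Atf4, the factor translated when PERK is active, was at 0.21 (edgeR adjusted p = 0.0112) and its target Ddit3, the gene for CHOP, at 0.17 (0.161). A second gene annotated as Ddit3 shares its locus, so the Ddit3 counts are uncertain.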

How the data were processed

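The authors prepared poly(A) libraries, trimmed reads with Cutadapt, mapped them to GRCm38 with STAR (2.6.1b) and estimated reads per gene with RSEM (1.3.1). The table they deposited holds expected counts for 55426 features, not normalized between samples, and 0 of its values had a fraction, so rounding changed nothing. The annotation release and the strand setting of the counting are not given in the sources used here. Exons of 12 members overlap a gene on the opposite strand. Identifiers were named with GENCODE M21, which held 55240 of them.

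edgeR (4.0.16, R 4.3.3) was run on the rounded expected counts with filterByExpr, TMM and the quasi-likelihood F test, unpaired, over all 6 samples, with Benjamini-Hochberg adjustment over 16207 genes and calls beyond a fold of 1.5 at an adjusted p under 0.05. CPM were scaled with TMM library sizes, and TPM used exon-union length. On simulated data with known changes, the scripts' tests were checked. Near copies were matched with blastn (2.17.0). Replicate pairs of a group differed by more than sampling noise (chi-square per degree of freedom 6.08 to 23.6).

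The 39 members, their role groups and the marker and pathway lists were chosen with earlier results of these data known. Any member may be named, and of the other ER pathway genes up to 4 called genes at each end of the fold changes (3 were called higher and 4 lower) plus Calr, Canx, Pdia3, Atf4, Ddit3 and Ppp1r15a. Col1a1, P4ha1 and Sec24c are named as ratio partners. Alternatives were other normalizations, tools, filters and thresholds, corrections for GC content and gene length, the replicate number as a block, and each library left out. The replicate block with the GC correction was added after seeing the data. No chromatin, protein or splicing data were analysed.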

Additional observations from a re-analysis of the deposited data

How the results depend on the processing

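The 4 members called higher (Ero1l, P4hb, Ern1 and Dnajb9) were called under every alternative except 2: a fold threshold of 2 left 2 of them, Ero1l and Ern1, and edgeR's glmTreat, which tests against 1.5-fold, lost Dnajb9 (adjusted p = 0.103). Without a fold threshold, 11 members were higher and 14 lower, as were 36 and 39 of the other ER genes and 5150 and 5018 of all tested genes. With a fold of 2, the other ER genes had 0 and 0, and all genes 1929 and 1227. The number of members called lower became 1 (Atf6b) with upper-quartile normalization (-0.59), no filter on low counts (-0.59), a GC content correction (-0.69) and the replicate block with that correction (-0.69). The other ER genes called higher became 1 with upper-quartile normalization, no filter, glmTreat and a gene length correction, and glmTreat left 2 lower there and 1438 lower over all genes. Leaving out 1 library each gave 4 members higher and 0 to 1 lower, 1 to 3 other ER genes higher and 3 to 5 lower, 2880 to 3223 genes higher and 2346 to 2509 lower, 7 to 10 ratios without overlap, and a members' median of -0.059 to -0.004.

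Samples that shared a replicate number had correlations of 0.14, 0.14 and 0.038 between their deviations, so the numbers were not taken to pair them, although every sample correlated best with its own number. With the replicate block, 4 members were called higher and 0 lower, the same 4 genes, and 5572 genes in all, of which 5467 were shared with the unpaired fit. By the adjusted p alone in edgeR, the block changed 3 of the named genes: Fkbp10 (0.144 without it, 0.029 with it) and Pdia3 (0.0627, 0.0405) passed, and Txndc11 (0.0469, 0.0559) did not. Calls by the adjusted p alone held in all 6 leave-one-out fits for 21 of 25 members, and in all 11 fits with another setting or tool, glmTreat aside, for 23 (not Txndc11 or Eif2ak3). Of the 14 members that did not pass, 4 passed in at least 1 of these 17 fits (Atf6, Sel1l, Sec61a1 and Fkbp10). Effect sizes also varied with the setting. Over all alternatives, the log2 fold change ran from -0.31 to -0.14 for Sec61b, -0.31 to -0.16 for Creld2 and -0.57 to -0.34 for Sdf2l1. Depth limits Derl3, with at most 16 counts.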
